A study of Homo sapiens with 4 samples.

Results

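The genes described here are the autophagy (ATG) genes and the genes of the vacuolar ATPase (V-ATPase), with a few lysosomal enzymes. Members were the protein-coding rows of the table whose symbol begins with ATP6, or with ATG and a digit, plus AMBRA1, BECN1, ARSA, ARSB and AGA. This rule gave 49 of the 2864 genes with values. Of these, 25 belong to the V-ATPase (13 subunits of V1, 9 of Vo and 3 accessory genes), 20 are autophagy genes counting AMBRA1 and BECN1, and 3 encode lysosomal hydrolases. The remaining member, ATP6, is the mitochondrial gene for a subunit of ATP synthase, which matched the rule by its symbol alone and was kept apart.

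A375 is a human melanoma cell line with mutant BRAF, and its genotype was given as wild type in every label. RNA was sequenced from untreated parental cells (A375P), from a resistant strain selected with rising doses and kept in vemurafenib continuously (A375R), from A375 cells given 1‰ DMSO for 48 h (A375+DMSO), and from A375 cells given 2 μM vemurafenib for 48 h (A375+VEM). Vemurafenib inhibits the BRAF kinase, and DMSO is its solvent. Each condition had 1 library and A375R is 1 strain, so the differences below could not be checked against replicates and carry no p-values. The pair of A375R and A375P asks what differs in stable resistance, and the pair of A375+VEM and A375+DMSO what differs after short exposure. In the first pair only A375R was kept in vemurafenib, so resistance and continuing exposure cannot be told apart.

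The V-ATPase is a rotary proton pump. Its V1 part hydrolyses ATP in the cytosol, its Vo part carries protons through the membrane, and together they acidify lysosomes, endosomes and, in pigment cells, melanosomes. Autophagy encloses cytoplasm in a double membrane that then fuses with lysosomes, where hydrolases that need an acidic lumen digest the content. In that pathway ATG13 and ATG101 act in the initiating kinase complex, BECN1, ATG14 and AMBRA1 in the lipid kinase complex, ATG9 and ATG2 proteins in supplying membrane, and ATG3, ATG4, ATG5, ATG7, ATG10, ATG12 and ATG16L1 in attaching ubiquitin-like proteins to the growing membrane. Many lysosomal genes carry in their promoters a motif with the core CACGTG, which is bound by basic helix-loop-helix factors such as TFEB and MITF.

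Where 4 values follow each other they stand for A375P, A375R, A375+DMSO and A375+VEM. Levels are given as deposited TPM, a read count divided by gene length and scaled per library, so they can be compared between genes. A gene was called higher or lower when its ratio of (TPM + 0.1) between 2 libraries passed 1.5-fold, provided that its TPM reached 1 in either of them. Log2 ratios are on that scale, which understates differences of low genes. Folds are plain ratios of TPM, and the 95% intervals beside them come from the reads by the exact Clopper-Pearson method and cover counting error only. Of the 49 members, 46 reached a TPM of 1 in at least 1 library. The other 3 were ATP6V0D2 with 9, 1, 1 and 0 reads in that order of libraries, ATP6V1G3 with 1 read in A375P and 0 in each other library, and ATG9B with 10, 4, 8 and 19 reads. A count of 0 allows up to 3 reads. These 3 genes stayed below the minimum TPM and were not compared.

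The libraries as a whole limited what could be read from a pair. The table holds the alphabetical start of the gene list, with 1891215 to 2054277 reads per library over these genes, which is a part of each library. A375P stood apart from the other culture without vemurafenib: 45.7% of genes passed 1.5-fold between A375+DMSO and A375P, 44.3% between A375R and A375P and 62.1% between A375+VEM and A375P, against 20.5% between A375R and A375+DMSO and 46.2% between A375+VEM and A375+DMSO. Each result on A375R is therefore given against both. Of 6 pigment cell markers in the table, 4 or 5 reached a TPM of 1 per library, with a summed TPM of 51.8 to 80.9, while ABCB5 was at most at 0.0978. ACP5 and ASAH1 of that list are also counted below as lysosomal genes. Of 6 hepatocyte markers, 5 reached it in every library, with a summed TPM of 118.5 in A375P, 90.1 in A375R, 89.8 after DMSO and 85.8 after vemurafenib and with ALB between 46.4 and 64.5. The summed level of 6 leukocyte markers was 1.65 to 3.20 and that of 4 endothelial markers 0.0992 to 1.84. The part of these markers in the results below was not tested. In bulk RNA, fewer cells that express a gene and less RNA per cell cannot be told apart.

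Promoter sequence was examined for the CACGTG core, and whether it has a part in the levels below was not tested. RefSeq windows from 250 bases before to 50 after a gene's start (GRCh38.p14) were matched for 38 of the 49 members, 17 of them V-ATPase genes. CACGTG reads the same on both strands. It was found in at least 1 window of 7 members, ATP6V0B, ATP6V0D1, ATP6V0E2, ATP6V1G1, ATG3, ATG14 and ARSB. By windows it was in 8 of 49 for the members (16.3%) and in 5 of 24 for the V-ATPase genes (20.8%), against 7.26% of all 35116 windows. By genes it was in 7 of the 38 matched members and 4 of the 17 matched V-ATPase genes. The 2 windows of ATP6V0E2 that hold it overlap and share 1 match. CACGTG was absent from the windows of ATP6AP1, ATP6V0A1, ATP6V0A2, ATP6V0C, ATP6V1D, ATP6V1E1 and ATP6V1G2, which were also lower in A375R than in A375P. No window was matched for ATP6V0E1, ATP6V1B2, ATP6V1C1, ATP6V1H and ATP6AP1L, lower there as well. The 3 promoters below are shown whole because these V-ATPase genes were lower in A375R and in A375+DMSO than in A375P. Capitals mark CACGTG, and its first base lay 57, 59 and 58 bases before the start in ATP6V0B, ATP6V0D1 and ATP6V1G1.
ATP6V0B, chr1:43974710-43975009, strand +: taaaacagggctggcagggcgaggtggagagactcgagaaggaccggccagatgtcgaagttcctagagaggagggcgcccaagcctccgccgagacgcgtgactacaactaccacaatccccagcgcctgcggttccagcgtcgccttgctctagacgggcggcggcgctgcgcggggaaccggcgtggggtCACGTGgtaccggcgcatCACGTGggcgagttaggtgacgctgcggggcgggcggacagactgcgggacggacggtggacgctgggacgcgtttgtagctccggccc
ATP6V0D1, chr16:67481108-67481407, strand -: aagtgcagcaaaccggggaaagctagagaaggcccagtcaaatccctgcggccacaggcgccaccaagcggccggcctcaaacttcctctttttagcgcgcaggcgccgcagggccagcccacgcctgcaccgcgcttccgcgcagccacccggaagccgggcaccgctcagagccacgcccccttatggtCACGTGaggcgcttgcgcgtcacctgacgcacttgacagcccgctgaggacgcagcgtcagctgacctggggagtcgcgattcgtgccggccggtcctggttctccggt
ATP6V1G1, chr9:114587519-114587818, strand +: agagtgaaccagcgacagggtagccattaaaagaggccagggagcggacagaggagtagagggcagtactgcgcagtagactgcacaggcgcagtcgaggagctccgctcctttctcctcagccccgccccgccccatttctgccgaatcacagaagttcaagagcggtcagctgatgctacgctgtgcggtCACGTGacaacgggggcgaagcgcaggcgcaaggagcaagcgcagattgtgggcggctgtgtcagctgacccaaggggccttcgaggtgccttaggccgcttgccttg
For the remaining 4 genes, 60 bases around the first match are shown. ATP6V0E2, ATG14 and ARSB were higher in A375+VEM relative to A375+DMSO, and ATG3 was lower.
ATP6V0E2, chr7:149872869-149872928, strand +: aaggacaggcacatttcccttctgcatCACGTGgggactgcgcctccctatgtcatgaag
ATG14, chr14:55411819-55411878, strand -: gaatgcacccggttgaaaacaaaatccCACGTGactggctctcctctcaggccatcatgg
ARSB, chr5:78986086-78986145, strand -: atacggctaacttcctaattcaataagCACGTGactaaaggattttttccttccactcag
ATG3, chr3:112561948-112562007, strand -: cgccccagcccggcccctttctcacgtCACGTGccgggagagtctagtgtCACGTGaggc
A match is a string of letters, and binding was not measured.

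V-ATPase genes were lower in A375R than in A375P. Of 23 compared, 15 were lower by 1.5-fold and 1 was higher, where 17.5% of all 1689 genes compared were lower and 26.8% higher. Their median log2 ratio was -0.81, against 0.10 over all genes. Vo subunits had a median of -1.06, V1 subunits one of -0.79, and the accessory genes one of -0.73. The summed TPM of the 25 genes was 2280.2 in A375P, 1240.3 in A375R, 1292 after DMSO and 2051 after vemurafenib. A375P and A375+VEM were thus the libraries with high sums, and A375R and A375+DMSO those with low sums.

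**Figure D1:**
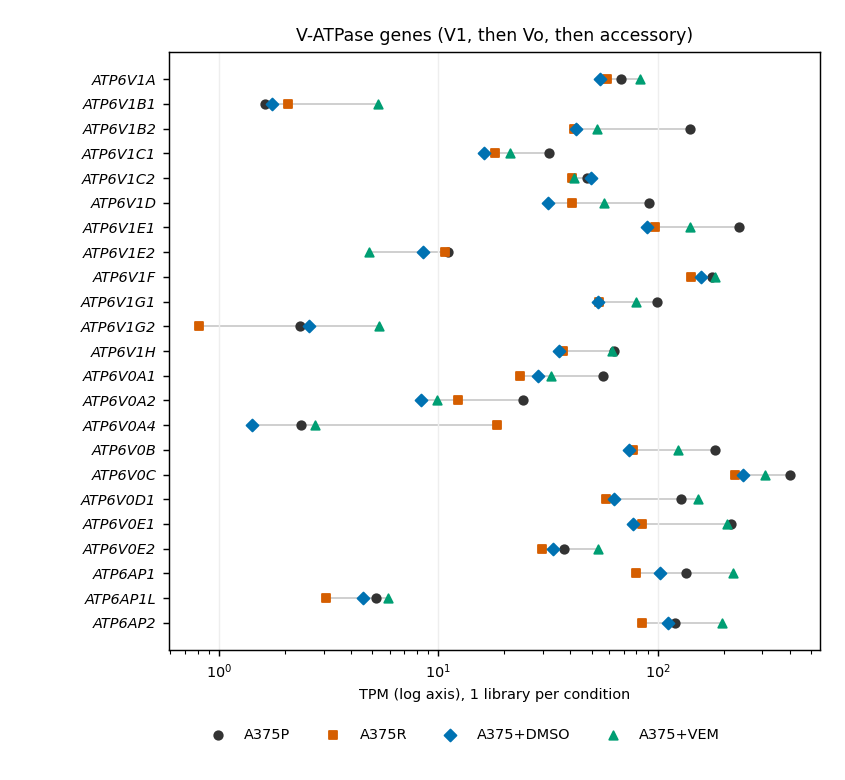
TPM (log axis) of the 23 V-ATPase genes that reached a TPM of 1, with 1 point per library and a grey line from the lowest to the highest. A375P or A375+VEM was the highest library for 21 of the 23 genes, and ATP6V0A4 was highest in A375R. Over all 1817 genes that reached a TPM of 1 in at least 1 library, A375P was highest for 26.7% and A375+VEM for 40.1%.

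In the catalytic V1 part, ATP6V1B2, which encodes the widely expressed form of subunit B, had the lowest ratio. It had a TPM of 140.1 in A375P, 41.7 in A375R, 42.4 after DMSO and 52.7 after vemurafenib, so A375P stood above the other 3. Its ratio in A375R to A375P was 0.297 (95% interval 0.277 to 0.319), rank 37 from the lowest among the 1689 genes. ATP6V1E1, a subunit of the stalks that hold the head in place, had 235.1, 97.7, 89.7 and 140.7 in the same order of libraries. ATP6V1D, a part of the rotating stalk, had 91.1, 40.6, 31.6 and 57.2, and ATP6V1G1, another stalk subunit, had 99.1, 53.9, 53.6 and 79.7. For these stalk genes A375+VEM lay between A375P and the low libraries. ATP6V1C1 and ATP6V1H, which regulate the joining and activity of V1, were at ratios of 0.569 and 0.589. ATP6V1C1 had 31.8, 18.1, 16.1 and 21.2, and ATP6V1H had 63.1, 37.2, 35.7 and 62.1, so that A375+VEM reached the level of A375P for ATP6V1H and not for ATP6V1C1. The catalytic subunit gene ATP6V1A differed less, with a TPM of 68.0, 58.8, 54.9 and 83.0. ATP6V1F, of the rotating stalk, had 178.0, 141.3, 157.7 and 183.1. These genes, the alternative forms ATP6V1C2 (47.4, 40.7, 49.4 and 41.4), ATP6V1E2 (11.1, 10.7, 8.49 and 4.83) and ATP6V1B1 (1.62, 2.07, 1.74 and 5.33) lay within 1.5-fold in A375R against A375P.

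Most Vo genes were lower as well. ATP6V0E1, a small membrane subunit, had a TPM of 216.4 in A375P, 84.5 in A375R, 77.0 after DMSO and 207.7 after vemurafenib, which split the libraries into a high and a low pair. Its ratio in A375R to A375P was 0.390 (95% interval 0.354 to 0.430). ATP6V0B, a subunit of the proton-carrying ring, had 182.9, 77.5, 74.1 and 123.3. ATP6V0D1, which links the ring to the rotating stalk, had 128.4, 58.2, 63.0 and 152.5, highest in A375+VEM. ATP6V0C, the main ring subunit, was the most abundant V-ATPase gene in every library, with 402.1, 224.7, 244.4 and 309.5. The ratio in A375R to A375P was 0.419 for ATP6V0A1 and 0.507 for ATP6V0A2, both forms of the subunit that anchors the stalks in the membrane. ATP6V0A1 had 56.3, 23.6, 28.5 and 32.6, and ATP6V0A2 had 24.2, 12.3, 8.35 and 9.84. A375P alone was high for both. ATP6V0E2, with 37.2, 29.8, 33.4 and 53.3, was within 1.5-fold. Of the accessory genes, ATP6AP1, which takes part in assembling the pump, had a ratio of 0.591 and ATP6AP1L, with 5.17, 3.08, 4.53 and 5.90, one of 0.596. ATP6AP2, the prorenin receptor, was within 1.5-fold at 0.704.

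**Figure D2:**
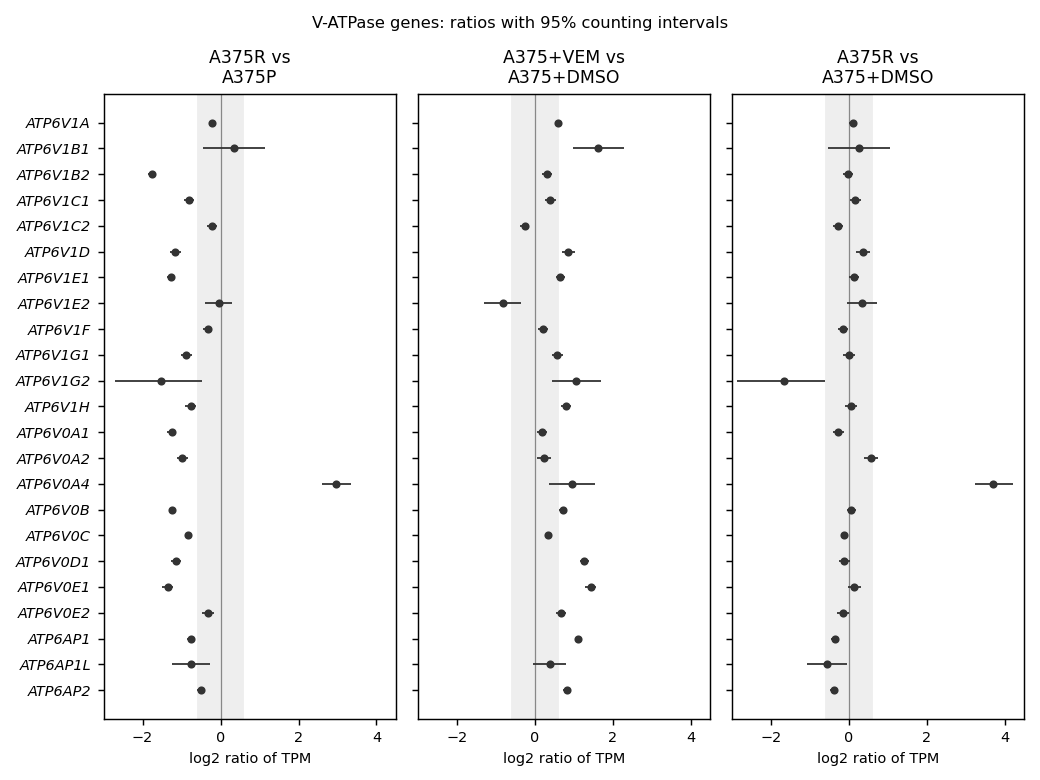
Log2 ratio of TPM for the 23 V-ATPase genes in 3 comparisons, with bars for the 95% counting interval and a grey band for less than 1.5-fold. Most points lie left of the band in A375R vs A375P, right of it or inside it in A375+VEM vs A375+DMSO, and inside it in A375R vs A375+DMSO.

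The same set was also lower in A375+DMSO than in A375P, where 13 of the 23 were lower and 0 higher, against 18.9% and 26.8% of the 1720 genes compared. Their median log2 ratio was -0.72. Of the 15 genes lower in A375R, 12 were lower in A375+DMSO too, a count that rests on 1 shared library, A375P. The same overlap over all genes was not counted, so whether it is particular to these genes is not known. The other gene lower in A375+DMSO was ATP6V0A4, at a ratio of 0.599 (95% interval 0.392 to 0.904). Between A375R and A375+DMSO the median log2 ratio was 0.01, and 1 of 23 genes was higher and 1 lower, where 10.5% and 9.99% of 1702 genes were. The other 21 lay between -0.54 (ATP6AP1L) and 0.55 (ATP6V0A2). The lower V-ATPase level of A375R thus held against A375P and not against A375+DMSO, the other library without vemurafenib.

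**Figure D3:**
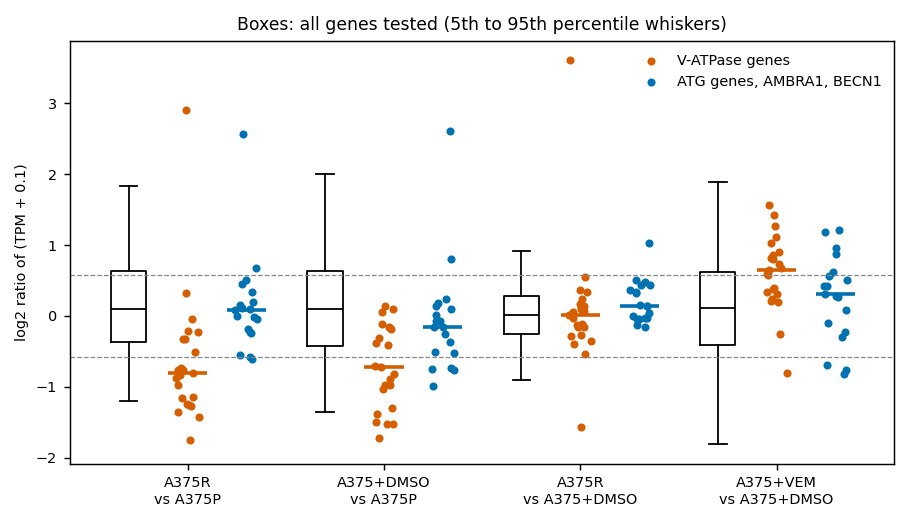
Log2 ratio of (TPM + 0.1) in 4 comparisons for all genes compared (boxes with quartiles, whiskers from the 5th to the 95th percentile) and for V-ATPase genes and autophagy genes (points, with a bar at the median). V-ATPase medians were -0.81, -0.72, 0.01 and 0.65 from left to right, and dashed lines mark 1.5-fold.

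ATP6V0A4 was the exception in A375R. It encodes the a4 form of the anchoring Vo subunit, known from the acid-secreting cells of the kidney, and its gene spans chr7:138391039-138482941, minus strand (hg19). It had 68 reads in A375P, 479 in A375R, 38 after DMSO and 73 after vemurafenib, or a TPM of 2.36, 18.4, 1.42 and 2.74. A375R alone was high. The ratio was 7.80 against A375P (95% interval 6.04 to 10.2) and 13.0 against A375+DMSO (95% interval 9.35 to 18.6). In the latter comparison it had the highest log2 ratio of all 1702 genes. Within A375R its level per length was 0.782 of that of ATP6V0A1 (95% interval 0.696 to 0.878), and in the other libraries 0.042 to 0.084 of it. It made up 34.0% of the summed TPM of the 3 ATP6V0A genes in A375R, 2.85% in A375P, 3.70% after DMSO and 6.06% after vemurafenib. The rule takes genes by symbol, so any gene for subunit a with another symbol is not in this sum. The sum of the 3 was 82.8 in A375P, 54.3 in A375R, 38.3 after DMSO and 45.2 after vemurafenib, so A375R stayed below A375P.

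**Figure D4:**
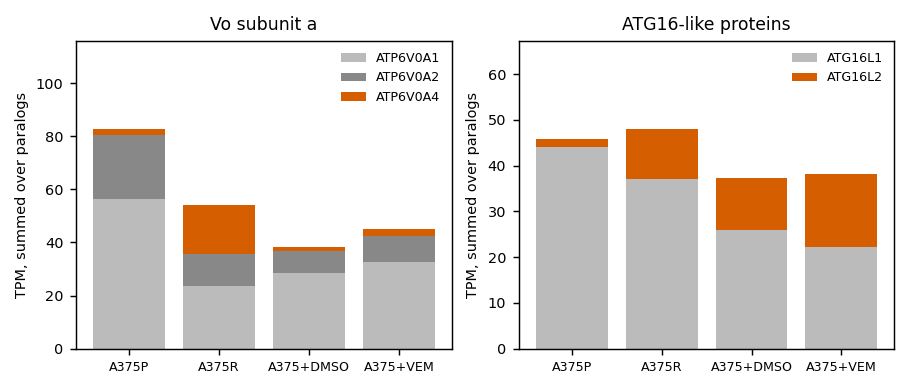
Summed TPM per library, stacked by gene, for the 3 ATP6V0A genes of Vo subunit a (left) and for ATG16L1 and ATG16L2 (right). ATP6V0A4 takes 34.0% of the left bar in A375R, and ATG16L2 takes from 3.83% (A375P) to 41.8% (A375+VEM) of the right bar.

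Other subunits with alternative genes were carried mostly by 1 of them. ATP6V1B1, the form known from kidney and inner ear, gave 1.15% of the summed TPM of subunit B in A375P, 4.72% in A375R, 3.95% after DMSO and 9.18% after vemurafenib. ATP6V0D1 gave at least 99.7% of subunit d, and ATP6V1G1 between 93.7% and 98.5% of subunit G. ATP6V1C2 exceeded ATP6V1C1 in every library, by a ratio of 1.49 per length in A375P (95% interval 1.38 to 1.61), 2.25 in A375R, 3.06 after DMSO and 1.95 after vemurafenib. ATP6V0E2 gave 14.7% of subunit e in A375P, 26.1% in A375R, 30.2% after DMSO and 20.4% after vemurafenib, and ATP6V1E2 between 3.32% and 9.89% of subunit E. The minor forms of subunits e and E thus took larger shares in A375R and A375+DMSO, where ATP6V0E1 and ATP6V1E1 were lower, than in A375P. Some of these values are uncertain. ATP6V1G2, with 32, 10, 33 and 68 reads, lies within a read-through transcript on the same strand, ATP6V1G2-DDX39B, which had 2228 to 6163 reads. Its ratio in A375R was 0.346 to A375P (95% interval 0.152 to 0.721) and 0.313 to A375+DMSO (95% interval 0.138 to 0.650), and it was the V-ATPase gene lower in the latter comparison. ATP6V1B1 and ATP6V0E2 overlap antisense RNAs, and whether reads were counted by strand is not given in the sources used here. ATP6V1B1-AS1 had 165, 78, 46 and 63 reads where ATP6V1B1 had 27, 31, 27 and 82. Of 9 pseudogenes of members in the table, none had more than 4 reads in a library.

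In A375+VEM the V-ATPase genes lay above A375+DMSO. Of 23 compared, 13 were higher by 1.5-fold and 1 was lower, where 26.5% of all 1784 genes compared were higher and 19.7% lower. The median log2 ratio was 0.65. Over all genes it was 0.11, and relative to that shift the V-ATPase median was 0.54. The accessory genes had a median of 0.82, Vo subunits one of 0.70 and V1 subunits one of 0.58. ATP6V0E1 was 2.70-fold higher (95% interval 2.44 to 2.98), ATP6V0D1 2.42-fold (95% interval 2.23 to 2.63) and ATP6AP1 2.16-fold (95% interval 2.04 to 2.29). ATP6AP1 had a TPM of 135.4 in A375P, 80.0 in A375R, 102.3 after DMSO and 220.7 after vemurafenib, and ATP6AP2 had 120.5, 84.8, 111.5 and 196.4. All 3 accessory genes were highest in A375+VEM and lowest in A375R, where 40.1% and 18.2% of all 1817 genes that reached a TPM of 1 were. ATP6V1B1 was 3.06-fold higher (95% interval 1.96 to 4.92) from 27 to 82 reads. ATP6V1D, ATP6V1H, ATP6V0B, ATP6V0E2, ATP6V1E1 and ATP6V1A were 1.81, 1.74, 1.66, 1.60, 1.57 and 1.51-fold higher. ATP6V0A4 was 1.93-fold higher with an interval from 1.29 to 2.94, and ATP6V1G2 2.08-fold with one from 1.35 to 3.25. ATP6V1E2, the minor form of subunit E, was the gene that was lower, at a ratio of 0.569 (95% interval 0.409 to 0.786). ATP6V1G1, at 1.49-fold, lay just inside the threshold.

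The higher level in A375+VEM depended on the control. Against A375P, 4 of the 23 V-ATPase genes were higher in A375+VEM and 6 lower, where 36.9% and 25.3% of 1782 genes were, with a median log2 ratio of -0.06. ATP6V1B2 had a log2 ratio of -1.41 in that comparison and ATP6V0A2 one of -1.29, whereas ATP6AP1 and ATP6AP2 were higher, at 0.70 each. ATP6V1B1 and ATP6V1G2 were the other 2 that were higher, at 1.65 and 1.16.

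Most autophagy genes lay within 1.5-fold between A375R and A375P. Of 19 compared, 2 were higher and 1 lower, where 26.8% and 17.5% of all genes were, with a median log2 ratio of 0.08. Relative to the median of all genes, 1 was higher and 3 lower, since ATG10 fell inside the threshold and ATG2B and ATG4A passed it. BECN1, the scaffold of the lipid kinase complex, had a TPM of 98.7 in A375P, 105.6 in A375R, 105.4 after DMSO and 131.2 after vemurafenib. AMBRA1, which regulates it, had 23.0, 24.9, 25.4 and 37.7. The first 3 libraries lay close together in both genes, and no ratio passed 1.5-fold between A375+VEM and A375+DMSO, where AMBRA1 was at 1.48 and BECN1 at 1.24. The gene lower in A375R was ATG4D, one of the proteases that process ubiquitin-like proteins of the ATG8 family, with 88.0, 58.0, 52.8 and 43.0. Against A375+DMSO, ATG4D was at a ratio of 1.10. ATG2B, with 12.2, 8.14, 7.28 and 13.4, lay just inside the threshold in A375R against A375P, at 0.665.

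ATG16L2 stood out among the autophagy genes. It encodes a relative of ATG16L1, the protein that places the conjugation complex on the membrane, and its gene spans chr11:72525451-72540680, plus strand (hg19). It had 34 reads in A375P, 191 in A375R, 203 after DMSO and 287 after vemurafenib, or a TPM of 1.75, 10.9, 11.2 and 16.0. A375P alone was low. The ratio was 6.22 in A375R against A375P (95% interval 4.30 to 9.24), and 0.972 against A375+DMSO (95% interval 0.793 to 1.19). ATG16L1 itself had 44.0, 37.2, 26.0 and 22.2. ATG10, an enzyme that attaches ATG12 to ATG5, was also lowest in A375P, with 5.59, 8.96, 9.81 and 11.9, and was 1.60-fold higher in A375R (95% interval 1.26 to 2.05), a call lost relative to the median of all genes. ATG12, the ubiquitin-like protein itself, was highest in A375R with 58.2, 82.4, 40.3 and 24.8. It was 2.04-fold higher than in A375+DMSO (95% interval 1.92 to 2.18) and 1.42-fold higher than in A375P. It overlaps AP3S1 on the other strand by 246 bases, and AP3S1 followed the same order of libraries, with 194.2, 257.0, 139.3 and 56.1.

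**Figure D5:**
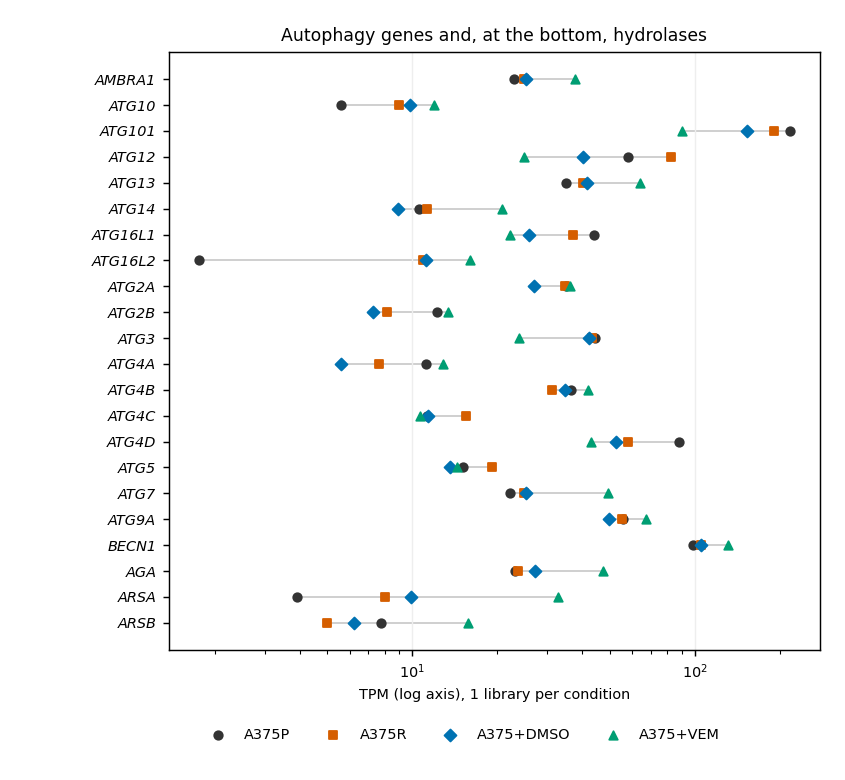
TPM (log axis) of the 19 autophagy genes that reached a TPM of 1 and, in the lowest 3 lines, of the 3 hydrolases, with 1 point per library. A375+VEM was the highest library for 12 of the 19 autophagy genes and for all 3 hydrolases, where it was highest for 40.1% of all 1817 genes that reached that TPM.

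After 48 h of vemurafenib the autophagy genes went both ways. Of 19, 5 were higher than in A375+DMSO and 3 lower, near the shares of all genes given above, and the median log2 ratio was 0.32, or 0.21 relative to the median of all genes. ATG14, the subunit that directs the lipid kinase complex to autophagy, had a TPM of 10.6 in A375P, 11.2 in A375R, 8.91 after DMSO and 20.9 after vemurafenib, a 2.34-fold rise over A375+DMSO (95% interval 2.06 to 2.67). ATG7, the enzyme that activates both ubiquitin-like proteins, had 22.2, 24.8, 25.3 and 49.5, a ratio of 1.96 (95% interval 1.81 to 2.11). ATG13 of the initiating complex had 35.0, 40.3, 41.4 and 64.0. In these 3 genes A375+VEM lay above each of the other libraries. ATG4A was 2.29-fold higher (95% interval 1.88 to 2.82), with 11.2, 7.64, 5.60 and 12.8, and ATG2B 1.84-fold, but for both A375P was near A375+VEM. The 3 lower genes were ATG3, which attaches ATG8 proteins to lipid, at a ratio of 0.563 (95% interval 0.508 to 0.624), ATG101 at 0.589 and ATG12 at 0.615. ATG101 had 217.9, 191.6, 153.4 and 90.4, and ATG3 had 44.5, 43.4, 42.3 and 23.8. A375+VEM was the lowest library in each of the 3.

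Other autophagy genes stayed within 1.5-fold in both pairs. ATG5, the partner of ATG12, had a TPM of 15.2, 19.2, 13.7 and 14.4, and ATG4C had 11.3, 15.5, 11.4 and 10.6. ATG9A, a membrane protein of the vesicles that start the structure, had 55.6, 55.1, 49.9 and 67.1, ATG2A had 35.0, 34.9, 27.1 and 36.2, and ATG4B had 36.5, 31.2, 34.7 and 41.8. ATG4D gave 59.9% of the summed TPM of the 4 ATG4 genes in A375P and 39.7% in A375+VEM, while the share of ATG4B went from 24.8% to 38.6%. In A375+DMSO against A375P, 2 autophagy genes were higher (ATG16L2 and ATG10) and 4 lower (ATG4A, ATG16L1, ATG2B and ATG4D), where 26.8% and 18.9% of all genes were. Between A375R and A375+DMSO 1 was higher, ATG12, and 0 lower, where 10.5% and 9.99% were.

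All 3 hydrolases were higher in A375+VEM than in the other libraries, where 40.1% of all 1817 genes that reached a TPM of 1 were highest in it. ARSA, which removes sulphate from sulphatides, had 145 reads in A375P, 268 in A375R, 341 after DMSO and 1126 after vemurafenib, or a TPM of 3.92, 8.02, 9.88 and 32.9. It was 3.33-fold above A375+DMSO (95% interval 2.94 to 3.76) and, in A375R, 2.05-fold above A375P (95% interval 1.67 to 2.52). ARSB, which acts on dermatan and chondroitin sulphate, had a TPM of 7.77, 5.01, 6.23 and 15.8. It was 2.53-fold above A375+DMSO in A375+VEM (95% interval 2.23 to 2.89) and at a ratio of 0.644 in A375R to A375P (95% interval 0.551 to 0.753), which is within 1.5-fold with a pseudocount of 1. AGA, which cleaves sugar chains from asparagine, had 23.1, 23.8, 27.2 and 47.4. It was 1.74-fold higher in A375+VEM (95% interval 1.55 to 1.96), and A375R and A375P did not differ beyond counting error, at 1.03 (95% interval 0.892 to 1.18). Between A375R and A375+DMSO all 3 ratios lay within 1.5-fold, at 0.812 for ARSA, 0.803 for ARSB and 0.875 for AGA.

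Mitochondrial ATP6 had a TPM of 4397 in A375P, 8603 in A375R, 9787 after DMSO and 11213 after vemurafenib. A375P was again the library apart, here the lowest, and A375R was 1.96-fold above it (95% interval 1.93 to 1.99). ATP8, the other mitochondrial gene in the table, which overlaps ATP6 by 46 bases, had 568.2, 1082, 1324 and 1577. Whether this shift in mitochondrial RNA has a part in the V-ATPase differences was not tested.

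Further genes of lysosomes and autophagy were counted from 3 lists. Their counts stand beside 26.8% of all genes higher and 17.5% lower in A375R against A375P, and 26.5% and 19.7% in A375+VEM against A375+DMSO. Of 11 other lysosomal genes, 2 were higher and 4 lower in A375R than in A375P, and 5 were higher and 2 lower in A375+VEM relative to A375+DMSO. ASAH1, the lysosomal ceramidase, split the libraries into the same high and low pairs as the V-ATPase sum, with a TPM of 32.4 in A375P, 15.9 in A375R, 16.2 after DMSO and 32.9 after vemurafenib, and so did ABCB9, a peptide transporter of lysosomes, with 69.0, 25.0, 21.5 and 59.6. ACP2, lysosomal acid phosphatase, had 25.4, 34.5, 41.0 and 101.9, an order like that of ARSA. ATP13A2, a lysosomal polyamine transporter, had log2 ratios of 0.83 in A375R against A375P and -0.80 in A375+VEM against A375+DMSO. In the same pairs, ABCA2 was at 1.79 and 0.37, ACP5 at 0.38 and 0.65, ARSK at 0.55 and 0.69, and ARSG at -0.40 and -2.87.

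Of 13 subunits of the AP-3 and BLOC-1 complexes, which sort cargo to lysosomes and melanosomes, none was higher in either pair. In A375R against A375P, AP3D1 and BLOC1S2 were lower at log2 ratios of -0.76 and -1.32, and BLOC1S3 with a TPM of 13.5 against 27.1. In A375+VEM against A375+DMSO AP3M2 and AP3S1 were lower at -0.89 and -1.31. Of 11 regulators of autophagy and mitophagy, 2 were higher and 2 lower in A375R than in A375P. Those higher were BNIP3L, a receptor for mitochondria, at 0.62 and C9orf72 at 0.59, and those lower were AKT1S1 at -1.02 and BCL2 at -1.01. In A375+VEM 2 were higher and 5 lower than in A375+DMSO. BCL2 and BCL2L1, which bind BECN1, were lower at -2.58 and -1.32, and ATF4, BAG3 and C9orf72 were at -0.97, -0.81 and -0.78. BCL2L11 was higher at 1.63 and ARFIP2 at 0.77. Against A375+DMSO, A375R differed by 1.5-fold in 3 genes of these lists, ARSG at 0.60, AP3S1 at 0.88 and BNIP3 at -0.83, where 20.5% of all genes did.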

How the data were processed

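The 4 kinds of A375 culture were sequenced as RNA, 1 library for each. Whether a batch of culture or sequencing has a part in the differences was not tested. The authors deposited 1 table with read counts and TPM per gene. The deposited counts are whole numbers without normalization. The deposited TPM relates each count to gene length and to the sum over the library. HISAT2, HISAT, TopHat2 and Bowtie2 and the build hg19 are named in the submitters' processing notes, without roles. The counting program is not given in the sources used here. It covers genes from the start of the alphabet, and 1 incomplete row was left out.

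The members and lists were chosen with earlier results of these data known. No test was run, since each condition had 1 library. Ratios used a pseudocount of 0.1 TPM, a minimum TPM of 1, a threshold of 1.5-fold and exact 95% intervals on the reads, and were computed for all 2864 genes. Values are given for members past the threshold, for alternative subunit genes and for AMBRA1, BECN1, ARSA, ARSB and AGA, and members of the 3 wider lists are given where past it, except 2 genes that are not reported here. Other members within 1.5-fold, ALB, ABCB5 and ATP8 were named after their values were seen. On simulated data for 2864 genes, 200 of those with a mean TPM of at least 1 were changed 3-fold. The ratio step called 98.0% of them for A375R against A375P and 99.5% for A375+VEM against A375+DMSO. It also made 42 and 53 calls among unchanged genes that reached a TPM of 1 in either library, a smaller base than 2864. The simulated reads varied by counting alone, so these rates do not cover variation between cultures or libraries. Alternatives were pseudocounts of 1 and 0.01, no minimum, a minimum TPM of 5, scaling to a median ratio of 1, a 2-fold threshold and the other control. Leaving out overlapping members and the alternatives for single members were chosen after seeing the data. Scripts ran in Python 3.11.15 with matplotlib 3.10.9, pandas 2.3.3, scipy 1.17.1 and numpy 2.4.6.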

Additional observations from a re-analysis of the deposited data

Results flagged for a closer look

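In 9 members the pairs moved past 1.5-fold in opposite directions. Log2 ratios of (TPM + 0.1) are given for A375R against A375P and then for A375+VEM against A375+DMSO, and no test was made of how the pairs differ, so it was not tested. They were -1.36 and 1.43 for ATP6V0E1, -1.14 and 1.27 for ATP6V0D1, -1.24 and 0.73 for ATP6V0B, -1.27 and 0.65 for ATP6V1E1, and -1.16 and 0.85 for ATP6V1D. They were -0.76 and 0.80 for ATP6V1H, -1.42 and 1.02 for ATP6V1G2, -0.76 and 1.11 for ATP6AP1, and -0.62 and 1.33 for the hydrolase ARSB, whose first value was within 1.5-fold with a pseudocount of 1, at -0.55. No member was higher in A375R against A375P and lower in A375+VEM against A375+DMSO. The pairs have different controls, and 45.7% of all genes passed 1.5-fold between A375+DMSO and A375P. In A375R against A375+DMSO, of these members only ATP6V1G2 passed 1.5-fold, at -1.56. The others lay between -0.36 (ATP6AP1) and 0.36 (ATP6V1D). ATP6V1G2 had 10 reads in A375R and 33 in A375+DMSO and lies within a read-through transcript on the same strand, so its values are uncertain. The share of all genes with opposite calls in the pairs was not counted.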

How the results depend on the processing

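Counts of members and medians of the V-ATPase and autophagy genes were computed in 4 comparisons under each alternative. At 2-fold, stricter by construction, members higher and lower were 3 and 8 in A375R against A375P, 9 and 0 in A375+VEM against A375+DMSO, and 7 were lower in A375+DMSO against A375P. With the other control, A375R had 2 members higher and 1 lower and a V-ATPase median of 0.0086, and A375+VEM had 14 higher and 11 lower and medians of -0.059 for V-ATPase and 0.20 for autophagy genes. The cause was not tested. Scaling to a median ratio of 1 gave an autophagy median of 0.21 in A375+VEM against A375+DMSO, and 17 members higher in place of 21, without ATP6V1A, ATP6V1E1, ATP6V0E2 and ATG13. In A375R against A375P it gave 4 higher and 20 lower in place of 5 and 17, without ATG10 (0.57) and with ATG2B, ATG4A and ATP6AP2. ARSB was no longer lower there with a pseudocount of 1 (-0.55), and ATG2B was lower with one of 0.01 (-0.59). In A375R against A375+DMSO, 1 member was higher and 0 lower without members that overlap another gene, and 0 were lower at a TPM of at least 5. Of 112 such values, 97 moved by at most 1.5 times (counts) or stayed within a set range (medians). That range ran from the median of the single genes' lower interval bounds to the median of their upper bounds. It is not an interval for the median itself.

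Many single members changed sign with the other control, and those past 1.5-fold in the original comparison are given here. In A375R against A375+DMSO the log2 ratio was -0.30 for ARSA, -0.13 for ATG10, -0.041 for ATG16L2, 0.13 for ATG4D, -0.19 for ATP6, 0.55 for ATP6V0A2, 0.063 for ATP6V0B, 0.13 for ATP6V0E1, 0.16 for ATP6V1C1, 0.36 for ATP6V1D, 0.12 for ATP6V1E1, 0.0086 for ATP6V1G1 and 0.059 for ATP6V1H. In A375+VEM against A375P it was -0.57 for ATP6V0B, -0.059 for ATP6V0E1, -0.67 for ATP6V1D, -0.74 for ATP6V1E1 and -0.022 for ATP6V1H. No called member changed sign under the pseudocounts or the scaling. A further 25 and 33 values moved beyond the counting interval with the other control in the 2 pairs, 21 with the scaling, and 1 and 2 with pseudocounts of 0.01 and 1, some of them across 0. No paired analysis was possible because each condition had 1 library, which is also why none could be left out.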
